A study of Caenorhabditis elegans with 17 samples.

Results

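NRDE-3 is a nuclear Argonaute protein of Caenorhabditis elegans, and the small RNAs bound to it were compared between an exos-1(ust57) library and a control library, with 1 library each. Targets were taken as genes other than rRNA genes with 100 or more antisense reads in either library after all transcript rows of a gene were summed. This gave 2953 targets of 45486 genes beyond rRNA, of which 2598 were protein coding. Of the targets, 326 had 100 or more antisense reads in both libraries, 2584 only in the exos-1 library and 43 only in the control library. At the threshold, 31 genes had exactly 100 antisense reads in their higher library, and 26 genes with 99 stayed outside.

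The series holds 17 small RNA libraries of mutants in the RNA exosome and in related genes, with their controls. In both libraries compared here the animals were L3 larvae kept at 20 °C on OP50 bacteria, and they carried eri-1(mg366) and the transgene ggIS1 (3xFLAG::GFP::NRDE-3), which was recovered with anti-FLAG beads. The exos-1(ust57) animals also carried a Cas9-made deletion in exos-1, a line whose homozygous animals leave few progeny. The RNA was treated so that small RNAs were cloned whatever their 5′ phosphates, and small RNAs were cut from a gel, at 18 to 40 nt by the labels and at 18 to 30 nt by the published methods.

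The RNA exosome trims and degrades RNA from the 3′ end, and EXOS-1 is one of its structural subunits. NRDE-3 binds 22G-RNAs, short RNAs made antisense to a target transcript by RNA-dependent RNA polymerases, and enters the nucleus when it is loaded. In eri-1 animals NRDE-3 lacks the endogenous siRNAs that depend on the ERI complex, so other cargo becomes visible, including risiRNAs, the 22G-RNAs antisense to rRNA. The question of the comparison was therefore what NRDE-3 carried when the exosome was impaired.

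The control library held 9545175 counted reads and the exos-1 library 8479439. Over the 5 NRDE-3 libraries the total ran from 7485478 to 11036220 reads, and antisense reads on protein-coding genes ran from 44615 to 1253905. By their labels all 5 carried eri-1(mg366) and GFP::NRDE-3. Since each genotype has 1 library, no difference below has a replicate check, intervals on ratios are 95% exact conditional binomial intervals that cover counting error only, and genotype and library cannot be told apart. A level in RPM is the number of antisense reads for every 1000000 antisense protein-coding reads of the same library, and a ratio without another name is exos-1 over control on that scale. Gene counts cannot show which bases of exos-1 were deleted, and its sense reads were 47 in the control and 70 in the exos-1 library. Sense reads of nrde-3 were plentiful in both, at 54069 and 67153. The larval microRNAs lin-4 and let-7 and the embryonic mir-35 to mir-42 were detected in both libraries, all with fewer sense reads in exos-1. In the control and in exos-1 these were 1601 and 50 for lin-4 and 14855 and 1671 for let-7. For mir-35 to mir-42 they were 8212 and 322. Sense reads of the 6 vitellogenin genes, taken as markers of the adult intestine, numbered 4441 in the control and 1226 in exos-1. Those of 31 major sperm protein genes, taken as sperm markers, numbered 158 and 89. Total small RNA of eri-1 animals held 3 and 1 sense reads of these 2 groups. Across the 5 NRDE-3 libraries, 6129 protein-coding genes had 100 or more sense reads in any library. Of these, 92 had a share of sense reads over 4-fold higher in both the control and dis-3 libraries than in each of the other 3, and 42 were over 4-fold lower. In such bulk RNA fewer cells of a type and less RNA per cell cannot be told apart. The part of this split in the results was not tested beyond leaving those genes out. Every class ratio and both target counts then stayed within their intervals or within 1.5 times. Since only protein-coding genes were left out and 2924 of 2953 targets stayed, that step could hardly move the values.

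The libraries differed first in how many of their reads were antisense to protein-coding genes. These reads numbered 166110 in the control and 1253905 in the exos-1 library, which was 1.74% of all counted reads in the control and 14.8% in exos-1, a ratio of 8.50 (8.45 to 8.54). Without genes that have a partner on the opposite strand, in this class and in the total, the ratio was 3.87 (3.84 to 3.89). That total also lacks the 18S and 26S rRNA genes, which have such partners. Their sense reads in the control and in exos-1 were 1160751 and 488123 for 18S, and 4571367 and 1235351 for 26S. How much of the change in the ratio came from the total was not tested. While the antisense protein-coding share was higher in exos-1, sense rRNA reads went from 60.7% to 21.7% of all reads, and sense microRNA reads from 8.30% to 1.84%. All other classes were therefore read against antisense protein-coding reads, and the scale matters for the direction: on shares of all reads every ratio is 8.50 times larger, so a ratio above 0.118 lies above 1 there. With the normalization number of the study (all counted reads less sense rRNA and sense protein-coding reads) the ratios are 3.79 times larger. With the median ratio of the 193 protein-coding genes at 100 or more reads in both libraries they are 2.29 times larger.

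Among RNA classes, the spliced leader RNAs and snRNAs stood highest in exos-1. Spliced leader RNAs donate the short leader that is trans-spliced onto many nematode messages, and snRNAs form the spliceosome. Antisense reads on spliced leader genes numbered 173 in the control and 4253 in exos-1, a ratio of 3.26 (2.80 to 3.81). Antisense reads on snRNA genes numbered 257 and 6289, a ratio of 3.24 (2.86 to 3.69). Both were above 1 on each of the 4 scales, which follows from the factors given above and adds no support.

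Antisense reads on snoRNA genes, whose RNAs guide rRNA modification, numbered 4234 and 41474, a ratio of 1.30 (1.26 to 1.34) that was 2.18 without genes that overlap another gene on the opposite strand. Those on lincRNA genes numbered 2192 and 21623, a ratio of 1.31 (1.25 to 1.37) that turned to 0.651 without such genes. For snRNA, snoRNA and spliced leader genes together the ratio was 1.48 (1.43 to 1.52). Without overlapped genes it was 2.35.

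risiRNAs numbered 4872 reads in the control and 60729 in exos-1, which was 2.93% and 4.84% of the antisense protein-coding reads and a ratio of 1.65 (1.60 to 1.70). Without genes that have a partner on the opposite strand it was 3.13. The 18S and 26S genes have such partners, so that value holds 5.8S and 5S genes only. The rRNA species did not move together. Antisense 26S reads went from 3405 to 50632, with a ratio of 1.97, and antisense 5.8S reads from 10 to 1688, with a ratio of 22.4 (12.1 to 46.7). Antisense 18S reads went from 1150 to 2622, and their ratio of 0.302 (0.282 to 0.324) lies below 1, although it turns above 1 on shares of all reads and on the normalization number.

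Transposon, tRNA and ncRNA classes were lower in exos-1 on this scale. Antisense transposon reads numbered 16225 and 51169, or 9.77% and 4.08% of the antisense protein-coding reads, a ratio of 0.418 (0.410 to 0.425). Antisense tRNA reads numbered 1710 and 7248, a ratio of 0.562 (0.533 to 0.592). On shares of all reads the transposon ratio was 3.55 and the tRNA ratio 4.77, so in reads of the whole library both were higher in exos-1.

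**Figure D1:**
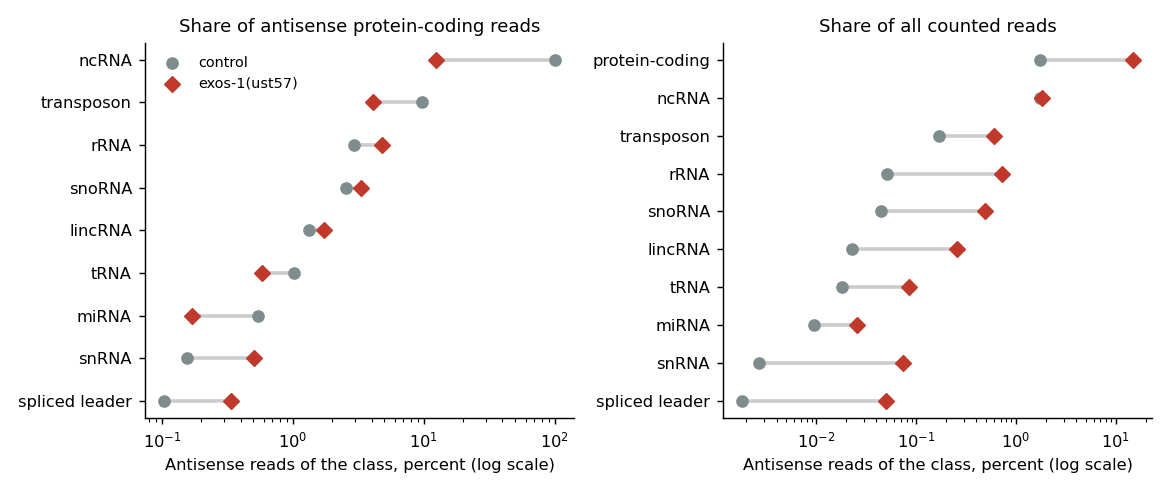
Antisense reads of each RNA class as a percent of antisense protein-coding reads (left) and of all counted reads (right), on log scales, with grey circles for the control and red diamonds for the exos-1(ust57) library, 1 library each. On the left spliced leader and snRNA reads lie about 3.2 times higher in exos-1 and ncRNA reads 0.123 times as high, and on the right protein-coding reads go from 1.74% to 14.8%.

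The ncRNA class needs its genomic setting to be read. Antisense reads on ncRNA genes numbered 166804 in the control, about as many as on all protein-coding genes, and 154809 in exos-1, a ratio of 0.123 (0.122 to 0.124). Of the control reads, 71.8% lay on 26 ncRNA genes whose exons overlap a microRNA gene on the opposite strand. In exos-1 the same genes held 16.4%. The 12 of them that were targets had antisense reads at 0.434 to 0.540 of the sense reads of their microRNA in the control and at 0.429 to 1.02 in exos-1, so they followed the microRNA in both libraries.

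T09B4.14 (I:6172671-6172796, + strand, WBcel235), which lies opposite mir-1, the muscle microRNA, had 62696 antisense reads in the control and 3549 in exos-1. The sense reads of mir-1 were 127705 and 6461. F16A11.6, opposite mir-71, had 25542 and 14236 antisense reads, beside 49047 and 27109 sense reads of mir-71. F59G1.10, opposite lin-4, had 765 and 33, beside 1601 and 50 sense reads of lin-4. These ncRNA values cannot be told apart from microRNA reads counted on the opposite strand.

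C10C6.11 (IV:11474031-11474252, + strand) was an ncRNA target that differed the other way, with 86 antisense reads in the control and 11363 in exos-1, a ratio of 17.5 (14.2 to 21.9). It lies opposite the snoRNA gene C10C6.8, whose sense reads were 76 and 11220. Without any gene on the opposite strand, lincRNA and ncRNA genes together had a ratio of 1.44 (1.40 to 1.48) against 0.138 with all genes, while lincRNA genes alone were at 0.651 without such partners.

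Gene by gene, 1131 of 2953 targets (38.3%) had a ratio of 2 or more and 376 (12.7%) a ratio of 0.5 or less, with a median log2 ratio of 0.70. The exos-1 library had more antisense protein-coding reads, so 2584 genes became targets through it alone and 191 of the targets had 3 or fewer reads in the control (23 of them none). Taking genes past the same share in either library, 602 RPM, left 488 targets, of which 111 (22.7%) were at least 2-fold higher and 266 (54.5%) at least 2-fold lower. Of the 2136 targets with no annotated gene on the opposite strand, 884 (41.4%) were higher and 178 (8.33%) lower. The counts of higher and lower genes thus depend on the read minimum, and the members below are given with their reads.

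Most classes entered through the exos-1 library. All 17 snRNA targets, of 96 genes, and all 8 spliced leader targets had under 100 antisense reads in the control, as had 45 of 50 snoRNA targets. A gene that entered in this way had to be high in exos-1, so its direction shows nothing by itself and the class sums above are the values to read. Of 13 lincRNA targets 2 were at least 2-fold higher and 4 lower, although the lincRNA sum was above 1. Of 46 transposon targets 3 were higher and 24 lower, and of 209 ncRNA targets 30 were higher and 143 lower, where 24 and 85 of them had entered only through exos-1. Among the 44 ncRNA targets with no gene on the opposite strand 22 were higher and 5 lower. Of 2598 protein-coding targets 1035 were higher and 197 lower, and 2386 had entered only through exos-1.

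**Figure D2:**
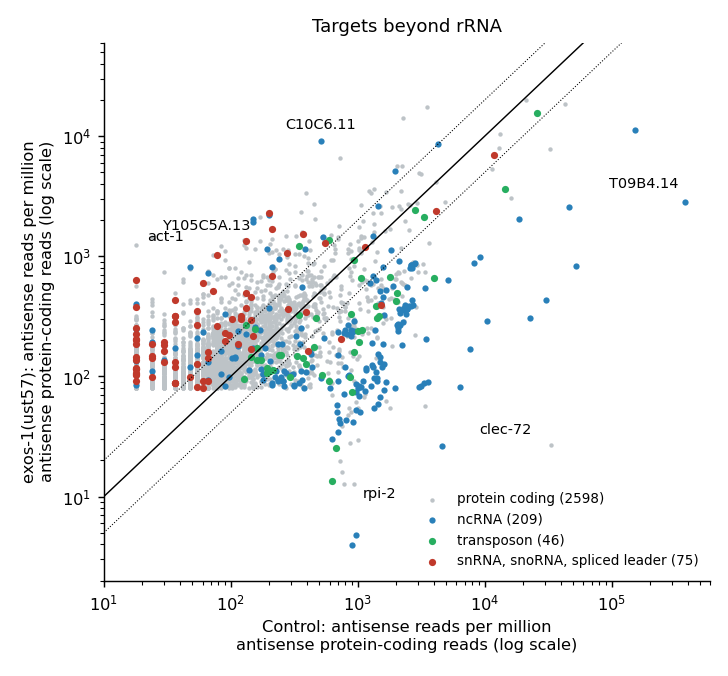
Each point is 1 of the 2953 targets, with its antisense reads in RPM, for every 1000000 antisense protein-coding reads, in the control (x) and in the exos-1(ust57) library (y) on log scales, and genes at or under 3 reads drawn at the level of 3 reads. The solid line marks equal levels and the dotted lines 2-fold. Most ncRNA points (blue) lie below the line, most snRNA, snoRNA and spliced leader points (red) above it, nearly all of them genes with 100 or more reads in exos-1 only, and clec-72 stands apart below.

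NRDE-3 cargo on protein-coding genes was spread over more genes in exos-1. Ranked by reads, 50% of the antisense protein-coding reads lay on 287 genes in the control and on 600 genes in exos-1. The 10 genes with the most such reads held 19.2% of them in the control and 11.4% in exos-1. In the other NRDE-3 libraries 50% lay on 457 genes in dis-3, 702 in exos-10 and 809 with dis-3, rrf-1 and rrf-2 alleles. A wider spread than in the control was therefore not particular to exos-1, and the part of read depth in it was not tested.

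Of the 10 protein-coding genes with the most antisense reads in each library, 5 were the same. pqn-96, which encodes a protein with a glutamine and asparagine rich domain, had 3490 antisense reads in the control and 25207 in exos-1, or 21010 and 20103 RPM. F43E2.6 had 2181 and 13193 antisense reads, a ratio of 0.801 (0.766 to 0.839). Y38E10A.14 had 7110 and 23415, a ratio of 0.436 (0.425 to 0.448). Per kilobase of exon, the antisense level in exos-1 was 29870.4 RPM for pqn-96, 10825 for F43E2.6 and 14600.2 for Y38E10A.14, so pqn-96 was the most densely covered of the 3.

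Other leading targets had a larger share in exos-1. cpt-4, a carnitine palmitoyltransferase of fatty acid oxidation, had 584 antisense reads in the control and 21827 in exos-1, a ratio of 4.95 (4.56 to 5.38). Y47H10A.5 had 376 and 17728, a ratio of 6.25 (5.64 to 6.94). F23A7.4, a gene of 0.207 kb of exon on chromosome X, had 120 and 8238, a ratio of 9.09 (7.59 to 11.0). Per kilobase it was the densest of the 10 leading genes of the exos-1 library that have an annotated length, at 31739 RPM.

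The tagged gene itself was among them. nrde-3 (X:372235-376900, + strand) had 5468 antisense reads in the control and 9727 in exos-1, a 4.24-fold lower share (4.104 to 4.39), and reads of the transgene and of the endogenous copy are counted together. M01E5.2 had 2689 and 3830, a 5.30-fold lower share. unc-119, a neuronal trafficking gene also used as a rescue marker in worm transgenesis, had 1890 and 6688, a 2.13-fold lower share. On shares of all reads all 3 were higher in exos-1 than in the control.

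For ranking, genes with 3 or fewer reads were set to 3 reads, while the ratios printed use the reads as counted, so genes with 1 control read can have a printed ratio above some of the 10. Of the 10 ranked highest, all but C10C6.11 had 5 or fewer control reads. act-1 (V:11081052-11082415, + strand), which encodes a muscle actin, had 2 antisense reads in the control and 1571 in exos-1, a ratio of 104 (28.8 to 860). Its sense reads were 3406 and 10564, and near-identical actin genes share reads in such counts. Y105C5A.13 had 4 and 1823 antisense reads, a ratio of 60.4 (23.5 to 222). F08G2.5 had 2 and 715 antisense reads and 8 and 1158 sense reads.

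The bZIP transcription factor genes zip-1 and zip-2 were both higher. zip-1 had 5 and 931 antisense reads, a ratio of 24.7 (10.5 to 76.1), and zip-2, which acts in the response to pathogens, had 336 and 7113, a ratio of 2.80 (2.51 to 3.14). gst-24, a glutathione S-transferase of the detoxification system, had 4 and 556, a ratio of 18.4 (7.15 to 67.8), with 8 and 548 sense reads. lsl-1 had 3 and 398, and its ratio of 17.6 has an interval from 5.97 to 85.6. The remaining 4 of the 10 were the snoRNA genes C16D9.11 (2 and 793 reads) and C06E7.95 (2 and 472) and the ncRNA genes F44E5.16 (3 and 500) and C10C6.11.

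clec-72 (IV:3944816-3947362, + strand), a C-type lectin gene, was the target with the smallest ratio. It had 5577 antisense reads in the control, the second highest of all protein-coding genes there, and 34 in exos-1, a 1238-fold lower share (885 to 1790). Its sense reads went from 49 to 631. This target was lower in exos-1 on each of the 4 scales. In total small RNA it had 4 antisense reads in eri-1 and 1 in eri-1;exos-1. The only other protein-coding gene among the 10 smallest was rpi-2, with 154 and 16 antisense reads, a 72.7-fold lower share (43.3 to 130). Of the other 8, which are ncRNA genes, 7 lie opposite a microRNA gene and K08E3.13 (150 and 5 reads) opposite cyk-4 and a snoRNA gene.

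Genes for cytosolic ribosomal proteins, taken over all 82 measured, had a larger antisense share in exos-1. Their antisense reads summed to 1368 in the control and 36870 in exos-1, or 8236 and 29404 RPM, a ratio of 3.57 (3.38 to 3.77). All 81 that were targets had 1 to 91 antisense reads in the control and entered only through exos-1, so no count of higher genes is read from them. rpl-12 had 8 and 991 antisense reads, a ratio of 16.4 (8.30 to 38.1). rpl-26 had 14 and 1528, a ratio of 14.5 (8.59 to 26.5). At the other end rps-8 had 91 and 426, a ratio of 0.620 (0.493 to 0.787).

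The sum did not rest on a few of them, since without the 3 highest genes of each library the ratio was 3.55. It was 3.43 over the genes with no partner on the opposite strand. Sense reads on the same genes summed to 137388 in the control and 302650 in exos-1, a smaller fold than in the antisense reads.

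Factors of rRNA processing, over all 13 on the list, had 403 antisense reads in the control and 5409 in exos-1, a ratio of 1.78 (1.61 to 1.97). Of the 12 targets, 11 entered only through exos-1. fib-1, the fibrillarin methyltransferase of box C/D snoRNPs, had 27 antisense reads in the control and 680 in exos-1, a ratio of 3.34 (2.27 to 5.101). Its partners nol-56 and nol-58 had 15 and 348, and 17 and 344, antisense reads, with ratios of 3.07 (1.84 to 5.55) and 2.68 (1.65 to 4.66). xrn-2, a 5′ to 3′ exonuclease, had 67 and 406, a ratio of 0.803 (0.619 to 1.06).

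**Figure D3:**
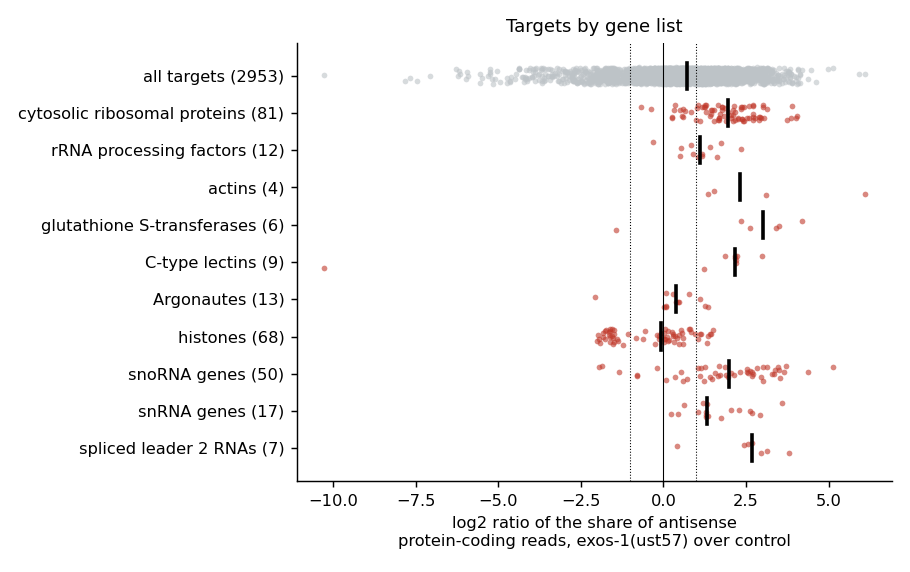
The log2 ratio of exos-1(ust57) over control, as shares of antisense protein-coding reads, for every target of a gene list (red points, with the number of targets) and for all targets (grey), with black bars at the medians and dotted lines at 2-fold. Ribosomal protein genes centre on 1.97, spliced leader 2 RNAs on 2.69 and all targets on 0.70, but every point of the first 2 groups entered only through the exos-1 library, and histones spread to both sides.

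Histone genes split by type. Of 72 genes 68 were targets, 21 of them only through exos-1, and 8 were at least 2-fold higher and 26 lower. The antisense reads summed to 14982 in the control and 90871 in exos-1, a ratio of 0.804 (0.790 to 0.818). Grouping them by the core histone they encode was done after their values were seen. All 17 H2A genes had a ratio below 1, and 15 of them were at least 2-fold lower, while no H3 or H4 gene was 2-fold lower. Because histone genes of one type are near-identical, their counts share reads and the genes are not independent.

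H2A antisense reads summed to 5566 in the control and 13855 in exos-1, a ratio of 0.330 (0.320 to 0.340). H3 reads summed to 3336 and 38802, a ratio of 1.54 (1.49 to 1.60). H4 reads summed to 675 and 6680, a ratio of 1.31 (1.21 to 1.42). The control thus held more H2A than H3 antisense reads, and exos-1 fewer. H2A reads were at 33508 RPM in the control and 11050 in exos-1. They were at 10064 in dis-3, 5960 in exos-10 and 11214 in the library with dis-3, rrf-1 and rrf-2 alleles. A lower H2A share than in the control was therefore not particular to exos-1. H3 reads were at 20083, 30945, 16497, 10103 and 10768 RPM in the same order.

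H2B genes fell into 2 sets with no gene in between. In the first set 9 genes had 145 to 387 antisense reads in the control and 319 to 942 in exos-1, with log2 ratios from -1.78 to -1.38. In the second set 7 genes had 218 to 430 in the control and 2889 to 3427 in exos-1, with log2 ratios from 0.05 to 0.82. In the control the ranges of the sets overlap, and in exos-1 they do not. The linker histone gene his-24 had 241 and 509 antisense reads, a 3.57-fold lower share (3.05 to 4.17).

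The histone split was not seen in total small RNA of eri-1;exos-1 against eri-1, which has its own control. There H2A reads were 120 and 712, a ratio of 4.64 (3.82 to 5.68), and H3 reads 298 and 1372, a ratio of 3.603 (3.18 to 4.098). Whether the IP and total ratios differ beyond library variation was not tested.

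**Figure D4:**
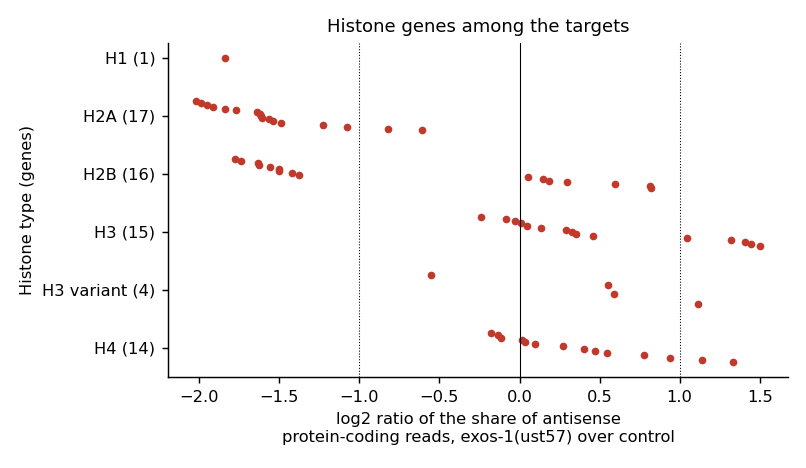
Each point is a histone gene among the targets, placed by its log2 ratio of exos-1(ust57) over control as a share of antisense protein-coding reads, with 1 row per histone type and the number of genes in brackets. H2A genes all lie below 0, H2B genes fall into a lower and an upper set, and the H3 and H4 genes lie from -0.24 to 1.503.

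Spliced leader and snRNA genes were low in the control throughout, and near-identical copies within each family share reads. The spliced leader 2 gene sls-2.9 had 3 antisense reads in the control and 319 in exos-1, a ratio of 14.1 (4.78 to 68.7), and sls-2.10 had 9 and 438, a ratio of 6.45 (3.37 to 14.2). The spliced leader 1 gene sls-1.12 had 92 and 1610, a ratio of 2.32 (1.88 to 2.89). Summed over the family, spliced leader 2 genes had a ratio of 4.54 (3.58 to 5.83) and spliced leader 1 genes of 2.37 (1.94 to 2.92), or 5.30 without the 3 highest genes of each library.

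The SmY RNAs are nematode snRNAs bound by Sm proteins and linked to trans-splicing. smy-1 had 6 antisense reads in the control and 547 in exos-1, a ratio of 12.1 (5.51 to 33.1). smy-2, named after its values were seen and classed by the files as a snoRNA gene, had 13 and 1288, a ratio of 13.1 (7.65 to 24.7). Of the snRNA genes with the most antisense reads after smy-1, T08G5.11 had 20 and 380 and F08H9.10 had 9 and 334. The ncRNA genes opposite them, T08G5.18 and F08H9.14, had 16 and 443 and 10 and 361 sense reads. The antisense reads of these snRNA genes cannot be told apart from sense reads of the genes opposite.

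Among snoRNA genes those with the most antisense reads did not lead in ratio. K07C10.2 had 1982 antisense reads in the control and 8687 in exos-1, a ratio of 0.581 (0.553 to 0.610), and B0334.12 had 684 and 2994, a ratio of 0.580 (0.533 to 0.631). The ncRNA gene K07C10.6 on the other strand of K07C10.2 had 1979 and 8902 sense reads, so these reads were counted for both genes' strands. M03D4.78 had 33 and 2901, a ratio of 11.65 (8.27 to 17.0), and Y48A6C.10 had 35 and 2129, a ratio of 8.06. Without the 3 highest genes of each library the snoRNA ratio was 2.73 against 1.30 for all.

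Of the other noncoding targets, linc-169 went from 411 to 10959 antisense reads, a ratio of 3.53 (3.20 to 3.91). It lies opposite mtch-1, a mitochondrial carrier gene, whose sense reads were 691 and 26493. linc-22 had 767 and 5871, a ratio of 1.01 (0.940 to 1.09), and linc-29 had 253 and 278, a 6.87-fold lower share (5.77 to 8.17). srpr-2.2, a signal recognition particle RNA gene, had 716 and 10714, a ratio of 1.98 (1.84 to 2.14). Without the 3 highest genes of each library the lincRNA ratio was 0.769, against 1.31 for all.

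The tRNA targets were 11, of which 6 overlap a gene on the opposite strand. R11B5.t2 had 87 and 829 antisense reads, a ratio of 1.26 (1.01 to 1.59), and the ncRNA gene opposite had 85 and 829 sense reads. R02E12.t1 had 1 and 293, a ratio of 38.8 with an interval from 6.91 to 1538. The single microRNA target, mir-5592.1, lies opposite mir-5592.2 and had 452 and 987, a 3.46-fold lower share (3.09 to 3.87).

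Among transposons ZC132.5 held the most antisense reads, with 4272 in the control and 19670 in exos-1, a ratio of 0.610 (0.590 to 0.631). The protein-coding entry ZC132.4, from the same clone by its name, had 2162 and 10073, a ratio of 0.617 (0.589 to 0.647). Y60A3A.27 had 2380 and 4560, a 3.94-fold lower share (3.75 to 4.141). K01D12.2 was one of the 3 transposons at least 2-fold higher, with 98 and 1721 reads and a ratio of 2.33 (1.90 to 2.88). Transposon entries matched no gene of the annotation, so their positions are not given.

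Small RNA pathway genes were themselves targets. Of 19 Argonaute genes 13 were targets, 7 of them only through exos-1, wago-1 among these. Of the 13 targets 3 (23.1%) were at least 2-fold higher, beside 38.3% of all targets, 1 was lower and 9 were within 2-fold. Summed over the 19 genes, antisense reads numbered 6593 and 24528, a ratio of 0.493 (0.480 to 0.507). It was 1.25 without the 3 highest genes of each library. alg-1, an Argonaute of the microRNA pathway, had 372 and 7133 antisense reads, a ratio of 2.54 (2.29 to 2.83). wago-1, which binds 22G-RNAs, had 18 and 327, a ratio of 2.41 (1.499 to 4.112). csr-1, the Argonaute that binds 22G-RNAs against germline-expressed genes, had 148 and 1189, a ratio of 1.06 (0.896 to 1.27).

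All 4 RNA-dependent RNA polymerase genes were targets, 3 of them only through exos-1, ego-1 among these. Summed over the 4 genes, antisense reads numbered 291 and 2815, a ratio of 1.28 (1.14 to 1.45). ego-1 had 34 and 544, a ratio of 2.12 (1.498 to 3.09). rrf-2 had 187 and 1820, a ratio of 1.29 (1.11 to 1.51), rrf-1 had 37 and 237, and rrf-3 had 33 and 214. Of 10 measured exosome subunit genes only dis-3 reached 100 antisense reads, with 34 and 151, a ratio of 0.588 (0.403 to 0.881). exos-1 had 10 and 14 antisense reads and eri-1 had 8 and 47, both too few to be targets.

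The targets of the ERI pathway were poorly represented in both libraries. Over the 12 genes matched of 16 listed, antisense reads summed to 143 in the control and 683 in exos-1, a ratio of 0.633 (0.528 to 0.763). Wild type (N2) total small RNA, which keeps ERI function, held 38061 reads on the same genes. K02E2.6 had 15 and 104 antisense reads, a ratio of 0.918 (0.532 to 1.70). On shares of all reads the ratio of the list was 5.38.

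Other groups of genes were formed by name after the values were seen. Over the 5 actin genes antisense reads numbered 31 in the control and 2348 in exos-1, a ratio of 10.0 (7.05 to 14.8) that was 3.09 over those with no partner, a set that lacks act-1. act-4 had 16 and 348, a ratio of 2.88 (1.75 to 5.097). Over 44 glutathione S-transferase genes they numbered 111 and 2172, a ratio of 2.59 (2.14 to 3.17) that was 5.55 without the 3 highest genes of each library, and gst-26 was lower with 71 and 197. Over 6 translation elongation factor genes they numbered 615 and 8454, a ratio of 1.82 (1.68 to 1.98). All 4 actin, all 6 glutathione S-transferase and 5 of 6 elongation factor targets entered only through exos-1. The C-type lectin list, not chosen by these values, had a ratio of 0.0703 (0.0673 to 0.0735) over its 250 genes, which turned to 2.05 without the 3 highest genes of each library, clec-72 among them. No collagen, major sperm protein or vitellogenin gene was a target.

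Targets were compared by chromosome, length and sense reads. Chromosome and sense reads did not enter their choice, while a longer gene can reach the read minimum more easily. Chromosome X held 219 targets, 7.58% of those placed on a chromosome, and 31.1% of them were at least 2-fold lower. The share of all genes that lie on X was not computed, so 7.58% cannot be read as few or many. These shares mix all classes of target. On the 5 autosomes the share of lower targets ran from 7.07% on III to 12.9% on V. The share of higher targets ran from 36.5% on X to 44.9% on V.

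Protein-coding targets that were higher had a median exon length of 1.78 kb, those within 2-fold 2.52 kb and those lower 1.40 kb. The minimum of 100 reads was 602 RPM in the control and 79.8 in exos-1. These lengths therefore cannot be told apart from the choice of targets. Of 1007 higher targets with 20 or more sense reads in either library, 208 (20.7%) were also at least 2-fold higher in their share of sense protein-coding reads, beside 14.6% of all 2484 such protein-coding targets. Of 145 lower targets 37 (25.5%) were higher in sense reads and 20 (13.8%) lower. Most targets that were higher in antisense reads were thus within 2-fold or lower in sense reads.

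Total small RNA of eri-1;exos-1 and eri-1 animals, which are other libraries than the NRDE-3 ones, gave a second reading of the same targets. There 2186 targets had 20 or more antisense reads in either library, and 1007 of them (46.1%) were at least 2-fold higher in eri-1;exos-1 and 129 (5.9%) lower. Of the 758 that were higher in the NRDE-3 exos-1 library, 513 (67.7%) were higher in total small RNA and 12 (1.58%) lower. Of the 327 that were lower with NRDE-3, 97 (29.7%) were higher in total small RNA and 82 (25.1%) lower. Ribosomal protein genes had a ratio of 7.78 (6.97 to 8.70) in total small RNA, spliced leader 2 genes of 25.2 (20.6 to 31.2), snRNA genes of 64.5 (49.6 to 85.6) and transposons of 0.430 (0.422 to 0.437), each on the same side of 1 as in the NRDE-3 libraries. Other groups lay below 1 with NRDE-3 and above 1 in total small RNA on the scale of antisense protein-coding reads. Their ratios with NRDE-3 and in total small RNA were 0.562 and 3.69 for tRNA genes, 0.633 and 2.12 for ERI-pathway targets, 0.804 and 2.56 for histones, 0.0703 and 1.72 for C-type lectins, and 0.123 and 3.601 for the ncRNA class. The same held for major sperm proteins, at 0.248 and 8.00, and for microRNA genes, at 0.317 and 2.51. The sperm protein genes had only 24 and 45 antisense reads with NRDE-3. Without the 3 highest genes of each library the NRDE-3 lectin ratio was 2.05. Exosome subunits were at 0.790 and 1.304, where both intervals include 1. The side of 1 depends on the scale. As shares of all reads the NRDE-3 ratios were 4.77 for tRNA genes, 5.38 for ERI-pathway targets and 6.83 for histones. They were 1.04 for the ncRNA class, 2.11 for major sperm proteins, 2.69 for microRNA genes and 0.598 for C-type lectins. Whether the NRDE-3 and total ratios differ beyond library variation was not tested.

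The other NRDE-3 libraries share the control, so their values are given side by side only. They too carried eri-1(mg366) and GFP::NRDE-3, beside the alleles named here. Antisense reads on ribosomal protein genes were 8236 RPM in the control, 29404 in exos-1, 25351 in exos-10(ok2269), 25709 in dis-3(ust56) and 15357 where dis-3(ust56) was joined by both rrf-1(pk1417) and rrf-2(ok210). clec-72 was at 33574 RPM in the control and 114715 in dis-3, but at 27.1 in exos-1 and 10.9 in exos-10, with 3 reads in the library with dis-3, rrf-1 and rrf-2 alleles. It was thus high in the 2 libraries that were set together in sense reads above, the only grouping counted there. Transposons were at 97676 RPM in the control and at 24329 to 40808 in the other 4. cpt-4 was at 17407 RPM in exos-1, at 3516 in the control and at 3049 or less in the rest.

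**Figure D5:**
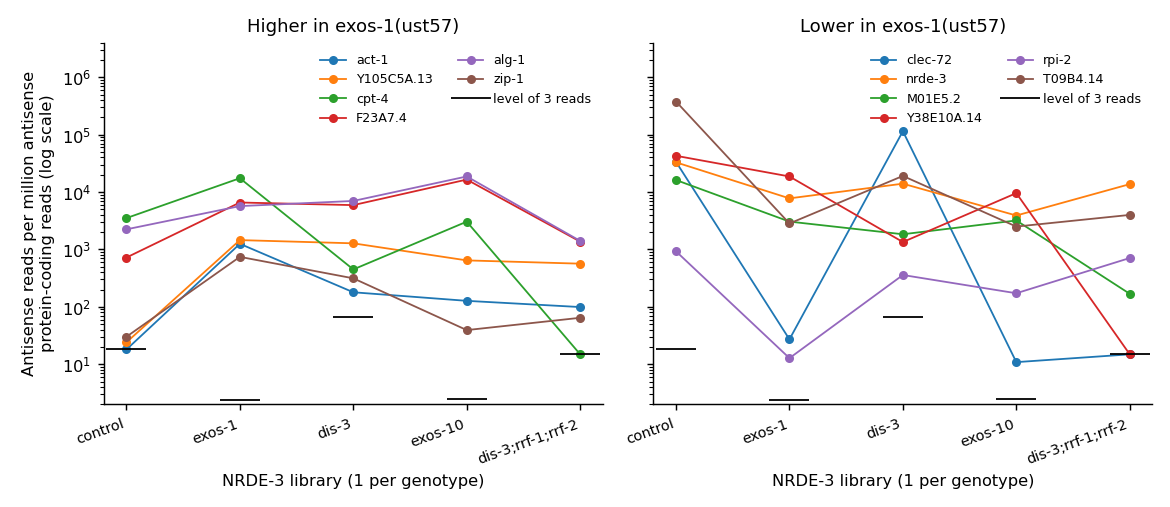
Antisense reads in RPM, for every 1000000 antisense protein-coding reads (log scale), in the 5 NRDE-3 libraries, 1 per genotype, for 6 genes with a higher share in exos-1(ust57) (left) and 6 with a lower share (right), with black bars at the level that 3 reads would have in that library. act-1 stands at the level of 3 reads in the control and at 1253 in exos-1, and clec-72 is high in the control and dis-3 libraries only.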

How the data were processed

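Small RNAs bound to 3xFLAG::GFP::NRDE-3 were sequenced by the authors on an Illumina platform. Reads were mapped with Bowtie2 (version not given in the sources used here) to the WS243 transcriptome, and the authors deposited raw counts of sense and antisense reads per transcript, with no normalization. The files have no header. The strand of each column was read from the microRNAs: the column taken as antisense holds 0.113% of their reads in the control and 1.36% in the exos-1 library. Empty cells, at most 3, were read as 0. Rows were summed per gene (45506 gene IDs), and identical or overlapping transcripts share reads. Names came from the files or RefSeq, and positions and opposite-strand partners from Ensembl 115 (WBcel235), which held 44848 IDs. The files have no pseudogene class, so the planned transposon and pseudogene ratio uses transposon rows. Genes at 3 reads or fewer entered target counts and log2 ratios at 3 reads, and ratios of named genes use the reads as counted. Ratios have 95% exact conditional binomial intervals. With 1 library per genotype no test between genotypes was made, and PCR reads are not independent molecules. The named genes are the 10 protein-coding genes with the most antisense reads in each library, the 10 largest and 10 smallest ratios, the 5 leading genes of each other class, and list members at 100 or more reads. The members and lists were chosen with earlier results of these data known. Alternative denominators, read minimums and row choices were tried. The computation was tested on simulated data with scipy 1.17.1 and pandas 2.3.3 under Python 3.11.15.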

Additional observations from a re-analysis of the deposited data

Results flagged for a closer look

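Sense reads are outside the antisense comparison. Among genes with 1000 or more sense reads in the exos-1 library, 3 had the largest ratio of exos-1 to control as a share of all reads. pgp-8, a P-glycoprotein transporter gene, had 9 sense reads in the control and 1602 in exos-1, a ratio of 200.4. irg-5, named for its response to infection, had 10 and 1636, a ratio of 184.2. The snoRNA gene C10C6.8 had 76 and 11220, a ratio of 166.2, and in total small RNA it had 1497 in eri-1 and 351 in eri-1;exos-1.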

How the results depend on the processing

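No paired analysis was possible because each genotype has 1 library and the labels give no replicate numbers. For the same reason no library could be left out. As shares of all reads, the risiRNA ratio was 14.0, that of snRNA, snoRNA and spliced leader genes 12.6, transposons 3.55, lincRNA with ncRNA 1.18 and ERI-pathway targets 5.38, with 2773 higher and 44 lower targets, so the last 3 ratios turned direction. With the normalization number they were 6.25, 5.59, 1.58, 0.524 and 2.40, with 3.79 for the protein-coding share and 2557 and 103 targets, so transposons and ERI-pathway targets turned. With the median gene ratio they were 3.78, 3.38, 0.957, 0.317 and 1.45, with 2308 and 170 targets, and ERI-pathway targets turned. Without the 10 top genes of each library in the denominator the first 4 were 1.51, 1.35, 0.382 and 0.127. With the largest row of a gene in place of the sum they were 1.76, 1.58, 0.446 and 0.143, and the protein-coding share was 8.61. Without genes that have a partner on the opposite strand the risiRNA ratio was 3.13, over 5.8S and 5S genes only, since 18S and 26S genes have a partner. That of snRNA, snoRNA and spliced leader genes was 2.35, lincRNA with ncRNA 1.44 (turned), the protein-coding share 3.87 and lower targets 178. The total under that protein-coding share lacks the 18S and 26S genes too. Without 5S genes the risiRNA ratio was 1.59.

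Higher and lower targets numbered 2061 and 2274 at 10 or more reads, 351 and 155 at 300, 15 and 223 with 100 in both libraries, and 447 and 192 at 4-fold. With 100 in the control 15 were higher, and past an equal share, chosen after seeing the data, 111. The other 19 values stayed within their interval or within 1.5 times, among them all 8 without the genes that stood apart in sense reads, an alternative also chosen after seeing the data. That alternative kept 2924 of 2953 targets, so it could hardly move the values. Apart from settings whose construction changes the denominator or the genes counted, the cause was not tested. Depth limits the low genes, since 3 reads are 18.1 RPM in the control and 2.39 in exos-1.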
